A study of Mus musculus with 6 samples.

Results

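The 4 genes Ino80e, Hirip3, Pagr1a and Maz of the duplicated mouse chromosome 7 segment encode proteins that act on chromatin, and 6 genes elsewhere in the genome, Ino80, Ino80b, Ino80c, Actr5, Hira and Paxip1, encode their partners in protein complexes. These 10 genes were chosen by name, from the gene content of the segment and from known complex membership, with earlier results of these data known. All 10 were found among the 45470 genes with a usable name and among the 15398 genes with enough counts to be tested. The study asked how carrying the duplication alters gene expression in the prefrontal cortex. Homogenised prefrontal cortex, taken at postnatal week 8, gave 6 RNA libraries, 3 from mice heterozygous for the 16p11.2 duplication and 3 from wild type mice. The line began on a mixed C57BL/6N:129Sv background and had been crossed to C57BL/6 for 10 generations, and sex is not stated in the labels. The labels do not say that each library is a separate animal or litter, so the p-values cover only how far these libraries spread, which may be technical.

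Total counts were 14891890 to 21872271 in the duplication libraries and 12988457 to 14369271 in the wild type libraries. Gene names and counts of the deposited table were out of step for 65.1% of names. All values below are read with the offset removed, and the 10 genes lay between 1087 and 2610 lines from the nearest step of the offset. Markers of cortical cell types were present, with all 6 excitatory neuron markers counted in every library and a summed level of 1242 to 1343 CPM (counts scaled to the effective library size) in duplication cortex and 1276 to 1539 CPM in wild type cortex. Meningeal fibroblast markers summed to 22.9 to 44.7 CPM in duplication libraries and 15.4 to 25.9 CPM in wild type libraries, and oligodendrocyte markers to 1089 to 1469 CPM in duplication and 1216 to 2126 CPM in wild type libraries. Microglia markers, the only set whose groups did not overlap in summed CPM, summed to 235.5 to 243.1 CPM in duplication and 206.5 to 235.2 CPM in wild type libraries. The mean log2 level of these 5 markers, centred on the 6 libraries, did overlap. It was 0.066, 0.076 and 0.025 in duplication replicates 1 to 3 and -0.061, 0.03 and -0.137 in wild type replicates 1 to 3. Striatal neuron markers summed to 73.6 to 79.8 CPM in duplication and 67.6 to 91.0 CPM in wild type libraries. The part of these markers in the results was not tested. In bulk tissue, fewer cells of a type and less RNA per cell cannot be told apart.

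INO80 is a chromatin remodeller that uses ATP to slide nucleosomes and to shape the placement of the histone variant H2A.Z at promoters and at sites of DNA damage. HIRA is the chaperone that deposits the histone variant H3.3 outside DNA replication, which is the main way in which neurons, as non-dividing cells, renew their histones. PTIP, the product of Paxip1, joins with PA1, the product of Pagr1a, in the complexes of the enhancer methyltransferases MLL3 and MLL4. MAZ is a zinc finger factor that binds runs of G in GC-rich promoters and works beside the insulator protein CTCF.

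The start regions of the 4 segment genes are shown because these genes ran in parallel across the libraries. Most other segment genes did so too, with 18 of 19 highest in duplication replicate 2 among the duplication libraries, and their windows are not shown. Each window runs from 250 bases before to 50 bases after the RefSeq start on GRCm38.p6 (mm10), 5′ to 3′ on the gene's own strand. The windows are chr7:126862323-126862622 (minus strand) for Ino80e, chr7:126861722-126862021 (plus) for Hirip3, chr7:127017303-127017602 (minus) for Pagr1a and chr7:127026956-127027255 (minus) for Maz. Capitals mark the letters GGGAGGG, of the kind that MAZ binds, or AAGATGGC, of the kind that the INO80 subunit YY1 binds, searched on both strands, so that CCCTCCC and GCCATCTT also count.
Ino80e: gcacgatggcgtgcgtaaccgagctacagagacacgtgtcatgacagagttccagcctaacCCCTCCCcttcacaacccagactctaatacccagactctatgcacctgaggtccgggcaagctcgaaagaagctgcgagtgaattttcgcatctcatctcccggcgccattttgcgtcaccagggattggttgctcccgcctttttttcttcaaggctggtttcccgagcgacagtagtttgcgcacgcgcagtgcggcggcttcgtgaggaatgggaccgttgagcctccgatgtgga
Hirip3: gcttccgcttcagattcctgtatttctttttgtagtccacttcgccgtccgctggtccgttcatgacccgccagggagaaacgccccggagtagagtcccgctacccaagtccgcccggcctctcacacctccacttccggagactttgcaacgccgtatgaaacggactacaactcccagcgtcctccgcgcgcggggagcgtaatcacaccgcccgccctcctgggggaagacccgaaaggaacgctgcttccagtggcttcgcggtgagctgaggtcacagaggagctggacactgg
Pagr1a: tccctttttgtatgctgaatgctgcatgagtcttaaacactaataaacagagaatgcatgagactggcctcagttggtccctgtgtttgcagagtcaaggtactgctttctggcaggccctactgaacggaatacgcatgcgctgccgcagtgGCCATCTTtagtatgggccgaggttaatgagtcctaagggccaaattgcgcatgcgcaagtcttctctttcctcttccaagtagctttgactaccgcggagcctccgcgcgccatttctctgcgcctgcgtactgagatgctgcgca
Maz: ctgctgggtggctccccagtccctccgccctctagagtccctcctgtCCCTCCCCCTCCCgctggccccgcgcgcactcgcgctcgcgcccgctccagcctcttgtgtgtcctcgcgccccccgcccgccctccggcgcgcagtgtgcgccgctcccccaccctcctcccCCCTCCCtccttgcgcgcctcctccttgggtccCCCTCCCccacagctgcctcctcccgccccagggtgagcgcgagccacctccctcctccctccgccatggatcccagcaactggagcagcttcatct

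GGGAGGG matched 4 times in the Maz window and 1 time in the Ino80e window, with 1 pair of the Maz matches overlapping, and 0 times in those of Hirip3 and Pagr1a. Of 32851 windows of 300 bases in the RefSeq table, 7211 held it, or 22%. AAGATGGC matched in the Pagr1a window and in that of the partner Ino80b, and 2.7% of all windows held it. RefSeq windows were used for 8 of the 10 genes, and where a gene had 2, the one nearest to the GENCODE start was taken. GC content was 74.3% for Maz, 61.7% for Hirip3, 56.7% for Ino80e and 52.0% for Pagr1a, against a median of 52.7% over all windows. A match of letters is a description and not a bound site. Ino80e and Hirip3 lie head to head, with gene starts 405 bases apart on opposite strands and 150 exonic bases of Hirip3 shared with Ino80e.

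All 4 segment genes lay above the wild type range in each duplication library, and all 4 were highest in duplication replicate 2. Their log2 fold changes, duplication over wild type, were 0.50 to 0.77 with a median of 0.65, while the median over all 15398 genes tested was 0.0050. None passed the threshold, a Benjamini-Hochberg adjusted p under 0.05 over all genes in edgeR's quasi-likelihood test, and 0% of all genes did. At an unadjusted edgeR p under 0.05, 4 of 4 lay above wild type, where 7.05% of all genes did. The libraries of the groups did not overlap for 4 of 4, with duplication higher, where this held for 11.7% of all genes. DESeq2 called 3 of 4 as higher, Ino80e, Hirip3 and Maz, where it called 0.299% of all genes as higher.

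Ino80e (chromosome 7, 126850960 to 126862377, minus strand) encodes an accessory subunit of the INO80 complex. It had 26.8, 36.1 and 28.2 CPM in duplication replicates 1 to 3 and 19.3, 18.6 and 15.5 CPM in wild type replicates 1 to 3. The groups did not overlap, and the gap between them was wider than the range of the wild type libraries. The means were 30.4 ± 5.0 CPM in duplication cortex and 17.8 ± 2.0 CPM in wild type cortex (SD, n = 3 each), a log2 fold change of 0.77 ± 0.13 (SE; edgeR adjusted p = 0.163, DESeq2 adjusted p = 0.000266). It ranked 19 of 15398 by edgeR p. Of its 7644 exonic bases, 1253 are shared with Doc2a or Hirip3 on the opposite strand, and no source used here gives a strand setting for the counts, so reads of these genes may not be fully separated.

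Hirip3 (chromosome 7, 126861972 to 126865377, plus strand) encodes a histone-binding protein found through its contact with HIRA. It had 18.2, 21.1 and 17.0 CPM in duplication replicates 1 to 3 and 11.99, 13.8 and 12.7 CPM in wild type replicates 1 to 3. The lowest duplication library stood above the highest wild type library. The means were 18.8 ± 2.1 CPM in duplication and 12.8 ± 0.90 CPM in wild type cortex (SD, n = 3 each), a log2 fold change of 0.55 ± 0.11 (edgeR adjusted p = 0.163, DESeq2 adjusted p = 0.0225).

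Pagr1a (chromosome 7, 127015033 to 127017352, minus strand), the gene of PA1, had 16.7, 21.98 and 16.5 CPM in duplication replicates 1 to 3 and 12.3, 13.4 and 13.2 CPM in wild type replicates 1 to 3. The wild type libraries were tightly grouped and the duplication libraries were not, with replicate 2 well above replicates 1 and 3. The log2 fold change of 0.50 ± 0.13 was the lowest of the 4 (edgeR adjusted p = 0.174, DESeq2 adjusted p = 0.0635). In GENCODE M21, 1412 of the 1430 exonic bases of Pagr1a are shared with the predicted genes Pagr1b or Gm42742 on the same strand, so its level is uncertain.

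Maz (chromosome 7, 127022130 to 127027037, minus strand), the gene of the zinc finger factor, was the most abundant of the 10 and overlaps no annotated gene. It had 109.7, 156.9 and 105.2 CPM in duplication replicates 1 to 3 and 74.4, 72.9 and 74.0 CPM in wild type replicates 1 to 3. The wild type libraries spanned less than the gap to the nearest duplication library. The means were 123.9 ± 28.6 CPM in duplication and 73.8 ± 0.77 CPM in wild type cortex (SD, n = 3 each), a log2 fold change of 0.75 ± 0.14 (edgeR adjusted p = 0.163, DESeq2 adjusted p = 8.96e-05).

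**Figure D1:**
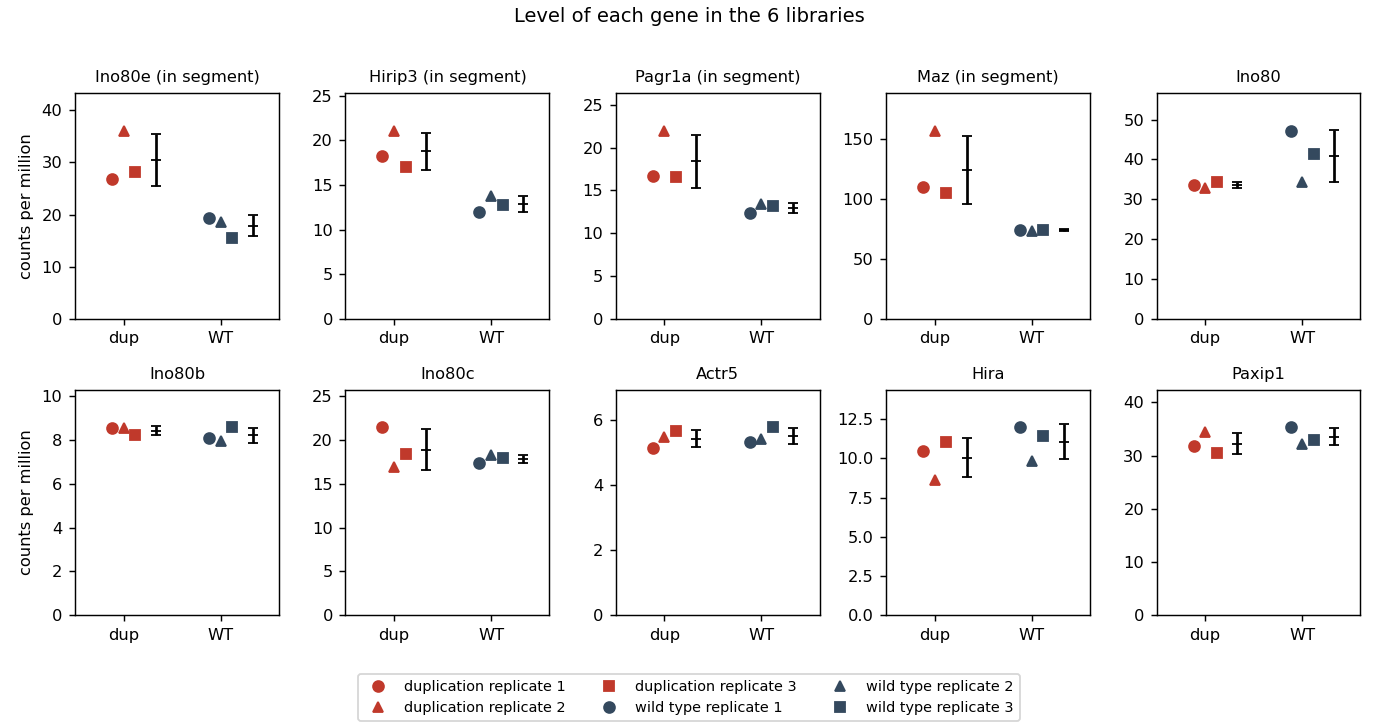
Level of the 10 genes in CPM (y axis, from 0, own scale per gene) in duplication (red, left) and wild type (dark, right) libraries, with symbols for replicates 1 to 3 and the mean ± SD beside them. The 4 genes in the segment do not overlap between the groups, and the 6 partners do.

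A gene present in 3 copies in place of 2 would have a log2 fold change of 0.585 if RNA followed copy number. That value lay within the 95% interval of 4 of 4 segment genes, and 0 lay outside the interval of each. Relative to the wild type mean, Ino80e was at 1.51-, 2.03- and 1.59-fold and Maz at 1.49-, 2.12- and 1.43-fold in duplication replicates 1 to 3. Hirip3 was at 1.42-, 1.64- and 1.32-fold and Pagr1a at 1.28-, 1.69- and 1.27-fold. With duplication replicate 2 left out, the median over the 4 genes was 0.50 on the log2 scale. Of the 19 other genes of the segment that were tested, 18 were also highest in duplication replicate 2 among the duplication libraries. Their median log2 fold change was 0.75, and 16 of 19 lay above wild type at an unadjusted edgeR p under 0.05, where 7.05% of all genes did. DESeq2 called 14 as higher, where it called 0.299% of all genes as higher. The share of all genes that were highest in duplication replicate 2 was not counted. Those 19 genes ranged from -0.17 ± 0.33 for Fam57b, a ceramide synthase-related gene, to 3.53 ± 0.50 for Gdpd3, a lysophospholipase D, on the log2 scale. Gdpd3 had only 7, 6 and 1 counts in wild type replicates 1 to 3, so the size of its fold change is uncertain. The next highest was Tmem219 at 0.97 ± 0.16.

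The edgeR calls changed with the libraries and with the filter. Without wild type replicate 2, 4 of 4 segment genes rose (adjusted p of 0.00804 for Ino80e, 0.011 for Hirip3, 0.0401 for Pagr1a and 0.0131 for Maz), where 4.65% of all genes were called higher. Without a filter on low counts all 4 also passed in edgeR, where 0.655% of all genes were called higher. Over the 15 alternatives the adjusted p ranged from 0.000189 to 1 for Ino80e, 0.00451 to 1 for Hirip3, 0.0128 to 1 for Pagr1a and 6.56e-05 to 1 for Maz. The values of 1 came from the fit with the level of unspliced transcripts as a covariate, described at the end.

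Of the 6 partners, none passed in edgeR or DESeq2, 2 had a log2 fold change above 0 and 4 one below 0. Their median was -0.04, and the groups overlapped for 6 of 6. At an unadjusted edgeR p under 0.05, 1 of 6, Ino80, lay below wild type, where 12.2% of all genes did. A log2 value of 0.585 lay outside the 95% interval of 6 of 6 partners, and 0 lay within the interval of 5.

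Ino80 (chromosome 2, 119373042 to 119477687), the ATPase of the remodeller, had 33.6, 32.7 and 34.2 CPM in duplication replicates 1 to 3 and 47.2, 34.2 and 41.2 CPM in wild type replicates 1 to 3. Wild type replicate 2 lay with the duplication libraries and the other wild type libraries lay above them. The log2 fold change was -0.29 ± 0.11 (edgeR adjusted p = 0.215), and the adjusted p ranged from 0.00996 to 1 over the 15 alternatives. It fell without wild type replicate 2, by 0.40 on the log2 scale (edgeR adjusted p = 0.00996), where 10.7% of all genes were called lower, and was at -0.17 without wild type replicate 1 (edgeR adjusted p = 0.448). Direction was not kept in every alternative, with 0.08 when the unspliced level was a covariate.

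The other 3 INO80 partners did not pass. Ino80b (chromosome 6, 83121765 to 83125431), the counterpart of yeast Ies2, had 8.54, 8.52 and 8.20 CPM in duplication replicates 1 to 3 and 8.10, 7.93 and 8.57 CPM in wild type replicates 1 to 3. Its log2 fold change was 0.04 ± 0.10, with a 95% interval of -0.19 to 0.27. Ino80c (chromosome 18, 24104757 to 24121953), the counterpart of yeast Ies6, had 21.4, 16.9 and 18.4 CPM in duplication replicates 1 to 3 and 17.3, 18.2 and 17.9 CPM in wild type replicates 1 to 3. The wild type values lay inside the duplication range, and the log2 fold change was 0.09 ± 0.10 (-0.14 to 0.32). Actr5 (chromosome 2, 158624888 to 158639211) encodes ARP5, the actin-related protein that forms a module with the Ies6 subunit. It had 5.16, 5.48 and 5.68 CPM in duplication replicates 1 to 3 and 5.32, 5.43 and 5.79 CPM in wild type replicates 1 to 3, a log2 fold change of -0.02 ± 0.12 (-0.29 to 0.24). Actr5 turned positive with upper-quartile factors, with the unspliced level as a covariate, and without duplication replicate 1 or wild type replicate 3, and Ino80c turned negative with that covariate and without duplication replicate 1.

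Hira (chromosome 16, 18877037 to 18970309), the WD-repeat subunit that names the H3.3 chaperone, had 10.46, 8.65 and 11.04 CPM in duplication replicates 1 to 3 and 11.99, 9.81 and 11.4 CPM in wild type replicates 1 to 3. The lowest value of each group was in its replicate 2. The log2 fold change was -0.13 ± 0.13, with a 95% interval of -0.42 to 0.15. Of 6215 exonic bases of Hira, 2778 are shared with predicted genes on the same strand, so its level is uncertain. Paxip1 (chromosome 5, 27740080 to 27791691), the gene of the BRCT-domain protein PTIP, had 31.8, 34.4 and 30.5 CPM in duplication replicates 1 to 3 and 35.3, 32.3 and 32.97 CPM in wild type replicates 1 to 3. Its log2 fold change was -0.06 ± 0.08 (-0.23 to 0.12), below 0 in each of the 15 alternatives and called in none.

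**Figure D2:**
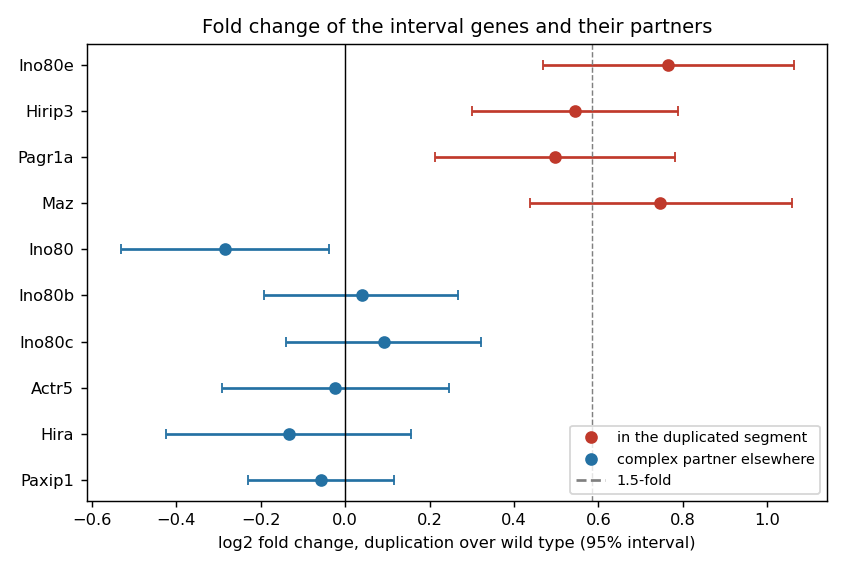
Log2 fold change, duplication over wild type, with its 95% interval from edgeR (x axis) for the 4 segment genes (red) and 6 partners (blue). The dashed line is 1.5-fold, a log2 value of 0.585, which lies within the 4 red intervals and beyond the 6 blue ones.

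Counts of an interval gene relative to those of a partner in the same library do not depend on the scaling between libraries. The ratio of Ino80e to Ino80 counts was 0.80, 1.10 and 0.82 in duplication replicates 1 to 3 and 0.41, 0.54 and 0.38 in wild type replicates 1 to 3. The mean ratio in duplication cortex was 2.05 times that in wild type cortex, and the groups did not overlap. Ino80e relative to Ino80b averaged 3.61 ± 0.57 in duplication and 2.18 ± 0.32 in wild type libraries (SD, n = 3 each). Relative to Ino80c it averaged 1.64 ± 0.45 and 1.002 ± 0.12, and relative to Actr5 5.59 ± 0.88 and 3.25 ± 0.50, in duplication and wild type libraries in that order. For each of these subunits, the lowest duplication library lay above the highest wild type library.

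The ratio of Hirip3 to Hira was 1.74, 2.44 and 1.54 in duplication replicates 1 to 3 and 1.0, 1.40 and 1.11 in wild type replicates 1 to 3. Pagr1a relative to Paxip1 was 0.52, 0.64 and 0.54 in duplication replicates 1 to 3 and 0.35, 0.42 and 0.40 in wild type replicates 1 to 3. In both pairs the groups did not overlap. Maz relative to Ctcf, the insulator gene, was 1.54, 2.29 and 1.59 in duplication replicates 1 to 3 and 1.018, 0.993 and 1.002 in wild type replicates 1 to 3. The pair within the segment behaved otherwise, with Ino80e relative to Hirip3 at 1.61 ± 0.13 in duplication and 1.39 ± 0.20 in wild type libraries (SD, n = 3 each), and overlapping groups. The ratios are descriptions and were not tested. The segment genes already lay apart between the groups without a partner, so the pairs with partners add no separate support.

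**Figure D3:**
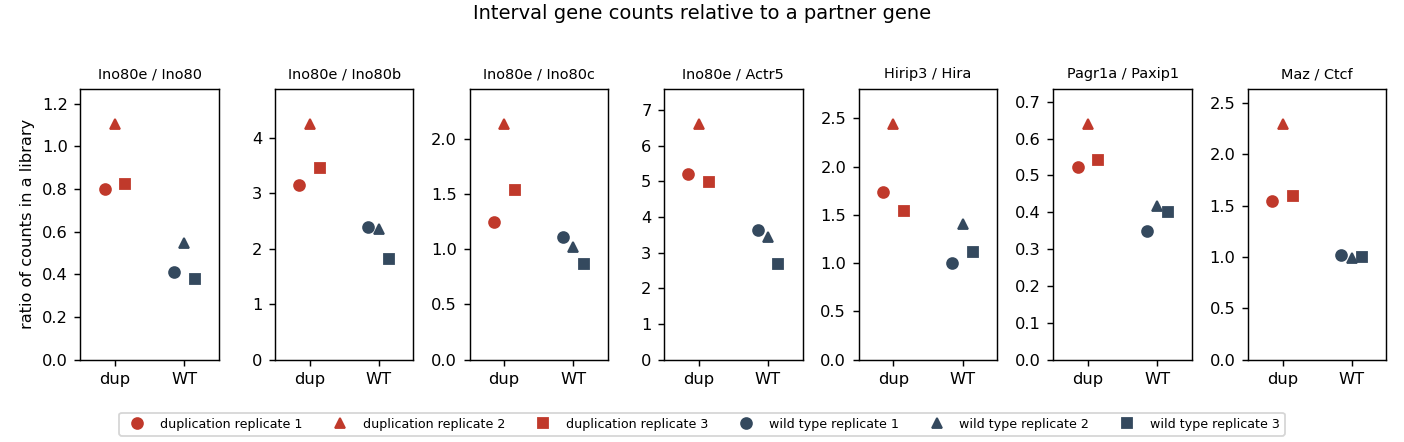
Ratio of counts of an interval gene to counts of a partner gene within each library (y axis, from 0, own scale per pair), duplication (red, left) and wild type (dark, right), symbols for replicates 1 to 3. In all 7 pairs each duplication library lies above each wild type library.

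Levels between genes are compared per kilobase of annotated exon (RPKM, CPM divided by exonic length in kilobases). In wild type cortex Maz was first at 24.8 ± 0.26, then Pagr1a at 9.07 ± 0.41 and then Ino80c at 6.30 ± 0.16 RPKM (SD, n = 3). Ino80 at 6.01 ± 0.96 did not differ from its neighbours Ino80c and Ino80b (5.15 ± 0.21) beyond the ranges of the libraries. Below them stood Hirip3 at 3.93 ± 0.28, Paxip1 at 3.26 ± 0.16, Ino80e at 2.33 ± 0.26, Hira at 1.78 ± 0.18 and Actr5 at 1.32 ± 0.06 RPKM, with no overlap between neighbours. In duplication cortex Hirip3 stood above Ino80 (4.93 ± 0.11 RPKM) at 5.75 ± 0.64 RPKM, overlapping Ino80c and Ino80b, and Ino80e at 3.98 ± 0.65 RPKM stood above Paxip1 at 3.14 ± 0.20. Exonic length is the union over all annotated transcripts, so these levels depend on the annotation. It also includes bases shared with other genes on the same strand, 1412 of 1430 for Pagr1a and 2778 of 6215 for Hira. The places of these 2 genes in the order are therefore uncertain.

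The other genes of the same complexes were taken from 4 lists, of which 35 of 37 genes were tested. None passed in edgeR. The median log2 fold change was -0.03, against 0.0050 over all genes, and at an unadjusted edgeR p under 0.05, 2 of 35 lay above wild type, where 7.05% of all genes did, and 8 of 35 below, where 12.2% did. DESeq2 called 0 higher and 3 lower, where it called 1.55% of all genes as lower, and the 3 were Ncoa6, Ubn2 and Kmt2c. Without wild type replicate 2, edgeR called 1 higher (H3f3a), where 4.65% of all genes were called higher, and 8 lower (Ino80d, Nfrkb, Ubn1, Ubn2, Cabin1, Kmt2c, Kmt2d and Ncoa6), where 10.7% were called lower. Of these, Nfrkb, Ubn1 and Cabin1 are named after their values were seen. Without a filter on low counts, edgeR called 5 lower (Ino80d, Ubn2, Kmt2c, Kmt2d and Ncoa6), where 3.19% of all genes were called lower. Not tested were Asf1b, a histone chaperone with 2 to 12 counts per library, and Daxx, a further H3.3 chaperone. Asf1b entered only the fit without a filter on low counts, and the line of Daxx lies near a step of the offset.

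Of 11 other INO80 subunits, none passed in edgeR or DESeq2. At an unadjusted edgeR p under 0.05, 1 of 11 lay above wild type and 2 below, where 7.05% and 12.2% of all genes did. The median log2 fold change was 0.07. It stayed above 0 in each of the 15 alternatives, at 0.03 without wild type replicate 1 and 0.02 with the unspliced level as a covariate. The highest was Mcrs1, a subunit that the remodeller shares with other nuclear complexes, with 59.5, 57.7 and 61.5 CPM in duplication replicates 1 to 3 and 55.6, 52.3 and 46.3 CPM in wild type replicates 1 to 3. Its groups did not overlap, and the log2 fold change was 0.21 ± 0.08 (edgeR adjusted p = 0.2). The lowest was Ino80d, an accessory subunit, with 38.5, 43.9 and 46.5 CPM in duplication replicates 1 to 3 and 65.7, 41.6 and 63.4 CPM in wild type replicates 1 to 3. As for Ino80, wild type replicate 2 lay with the duplication libraries, and the log2 fold change was -0.41 ± 0.16 (edgeR adjusted p = 0.22).

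Of 7 tested HIRA and H3.3 genes, none passed in edgeR and the median was -0.08, or -0.02 both without a filter on low counts and with the unspliced level as a covariate. Ubn2, a ubinuclein that binds HIRA, had 53.1, 56.9 and 59.0 CPM in duplication replicates 1 to 3 and 80.4, 63.5 and 78.6 CPM in wild type replicates 1 to 3. Every duplication library lay below every wild type library, where this held for 10.5% of all genes. The log2 fold change was -0.40 ± 0.10 (edgeR adjusted p = 0.174, DESeq2 adjusted p = 0.0366, range over the 15 alternatives 0.00215 to 1). H3f3a, a gene of histone H3.3 itself, was the highest at 0.20 ± 0.07 (edgeR adjusted p = 0.189), with means of 64.9 ± 3.4 CPM in duplication and 56.4 ± 3.5 CPM in wild type cortex (SD, n = 3 each), and turned to a value just below 0 with the unspliced level as a covariate. Antisense genes share 798 of its 3504 exonic bases. Ubn1, Ubn2 and Cabin1 lay below wild type at an unadjusted edgeR p under 0.05, or 3 of 7, where 12.2% of all genes did. H3f3a lay above wild type by the same measure, or 1 of 7, where 7.05% of all genes did. Ubn1, like Ubn2, had groups that did not overlap, with duplication lower, while the groups of Cabin1 overlapped.

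Of 9 genes of the PTIP and MLL3/4 group, none passed in edgeR, the median was -0.06 (0.06 with the unspliced level as a covariate), and 3 of 9 lay below wild type at an unadjusted edgeR p under 0.05, where 12.2% of all genes did. The 3 were both methyltransferase genes and the coactivator gene Ncoa6. The median of the group depended on single libraries, at -0.02 with duplication replicate 1 left out, and at -0.13, -0.03 and -0.0088 with wild type replicates 1, 2 and 3 left out in turn. Kmt2d, which encodes MLL4, had 22.7, 35.4 and 44.5 CPM in duplication replicates 1 to 3 and 126.3, 39.5 and 108.4 CPM in wild type replicates 1 to 3. Wild type replicate 2 lay inside the duplication range, and the log2 fold change was -1.43 ± 0.39 (edgeR adjusted p = 0.174). Ncoa6, a subunit of the same complexes, had 22.1, 27.7 and 31.5 CPM in duplication replicates 1 to 3 and 57.0, 31.3 and 55.2 CPM in wild type replicates 1 to 3. It was at -0.82 ± 0.22 (edgeR adjusted p = 0.174, DESeq2 adjusted p = 0.00724, range over the 15 alternatives 0.00157 to 1). Kmt2c, which encodes MLL3, was at -0.49 ± 0.15 (edgeR adjusted p = 0.175, DESeq2 adjusted p = 0.0494, range 0.00501 to 1). The highest was Rbbp5, a core subunit of all MLL complexes, at 0.07 ± 0.06.

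Of 8 genes related to MAZ by zinc fingers or by insulation, none passed and none had an unadjusted edgeR p under 0.05. The median was -0.02, at -0.04 without wild type replicate 1 or 2 and -0.01 without wild type replicate 3, and just above 0 with upper-quartile factors. Log2 fold changes ran from -0.10 ± 0.06 for Ctcf to 0.06 ± 0.08 for Patz1, a zinc finger gene close to MAZ. Ctcf had 71.3, 68.5 and 66.2 CPM in duplication replicates 1 to 3 and 73.0, 73.4 and 73.8 CPM in wild type replicates 1 to 3. The groups did not overlap, with a difference of a few CPM.

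**Figure D4:**
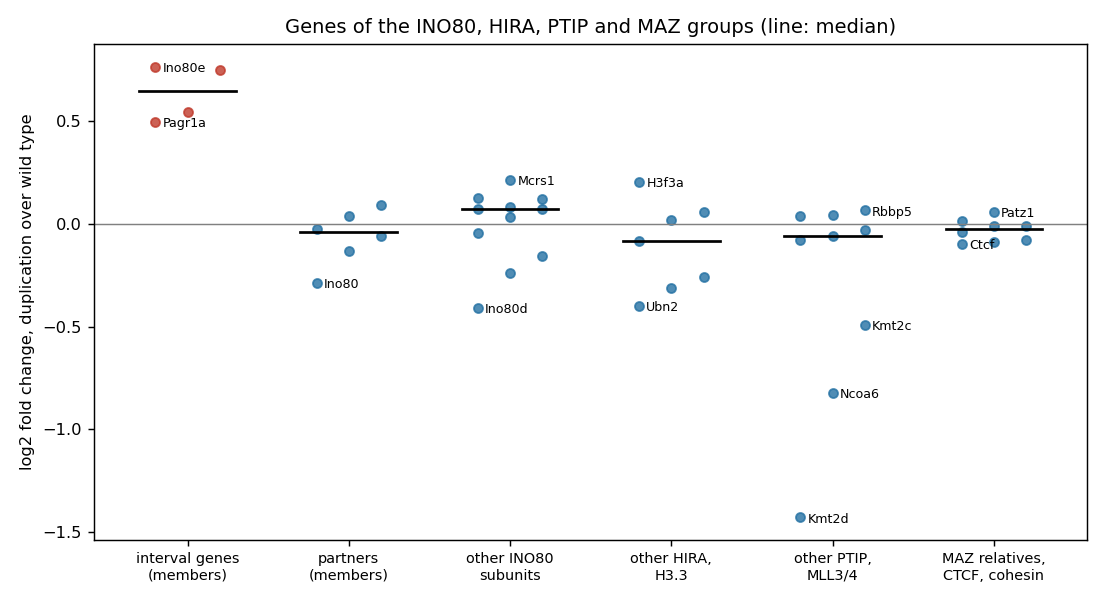
Log2 fold change, duplication over wild type (y axis), of each tested gene in the 6 gene groups on the x axis, with a line at the median of each group. The 4 segment genes lie at 0.50 and above, and the lowest gene is Kmt2d at -1.43.

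Transcripts annotated as TEC or sense intronic moved with several of these values. Their mean is called the unspliced level here, and reads from introns of other genes were not measured. The mean log2 level of 292 transcripts of the annotation classes TEC (unspliced clone-derived transcripts) and sense intronic, centred on the 6 libraries, was -0.44, -0.43 and -0.12 in duplication replicates 1 to 3 and 0.47, 0 and 0.53 in wild type replicates 1 to 3. Wild type replicate 2 stood between the duplication libraries and the other wild type libraries on this measure, and with the duplication libraries in the levels of Ino80, Ino80d, Kmt2d and Ncoa6. With this level as a covariate in edgeR, which left 3 residual degrees of freedom, the log2 fold change was 0.08 for Ino80, 0.32 for Ino80d, 0.55 for Kmt2d, 0.19 for Kmt2c, 0.22 for Ncoa6 and 0.22 for Hira, each opposite in sign to the value without it. Ubn2 was at -0.02 in that fit. In the same fit the segment genes stayed positive at 0.56 for Ino80e, 0.28 for Hirip3, 0.30 for Pagr1a and 0.56 for Maz, with a median of 0.43. No gene passed in that fit, and each of the 10 genes had an edgeR adjusted p of 1. The level and the genotype largely run together in 6 libraries, and the part of this level in the results was not tested beyond that fit.

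**Figure D5:**
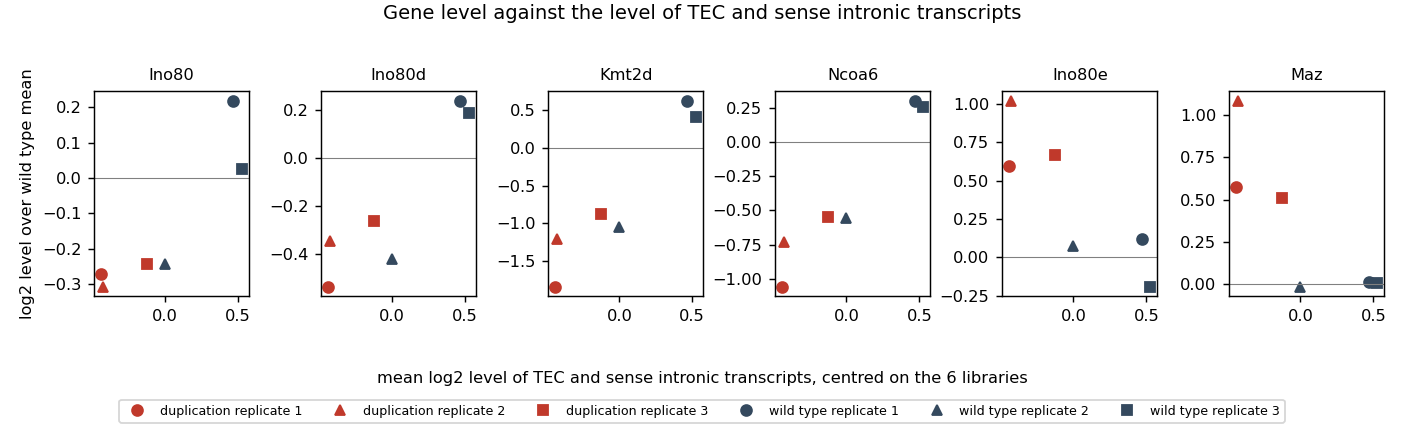
Log2 level of 6 genes over the wild type mean (y axis, own scale per gene) against the mean log2 level of TEC and sense intronic transcripts in the same library (x axis), duplication red and wild type dark, symbols for replicates 1 to 3. Ino80, Ino80d, Kmt2d and Ncoa6 are high in wild type replicates 1 and 3 alone, while Ino80e and Maz are high in the duplication libraries.

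The tested genes whose log2 CPM ran most like that of each segment gene over the 6 libraries were taken by Pearson's r, as a description over points that share the genotype difference. For Maz they were Tbc1d10b (0.9965), Kctd13 (0.996) and E2f5 (0.9945), and 13 of the closest 20 genes were segment genes, of 22 that could be. Kctd13, which links substrates to the CUL3 ubiquitin ligase, lies in the segment. For Pagr1a they were Doc2a (0.9946), a calcium sensor of transmitter release in the segment, Ehbp1l1 (0.991) and Sugt1 (0.9889), with 9 segment genes among the closest 20. For Hirip3 they were 1700047I17Rik2 (0.9976), Tmem219 (0.9955), a segment gene, and Crhr1 (0.9941), with 8 among the closest 20. For Ino80e they were Orai1 (0.9963), Ehd3 (0.9927) and Pik3r6 (0.9922), none of which lies in the segment, with 6 among the closest 20.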

How the data were processed

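The deposited values are unnormalized whole-number counts per gene, in a joint table of 6 columns and a table for each library. The 6 per-library tables held the same values as the joint table. Per the submitters' processing notes, cutadapt, TopHat2 and HTSeq were used with mm10, and no source used here gives versions, annotation or strand setting. Per the labels' protocols, Trizol was used for extraction and the kit was stranded, for total RNA depleted of ribosomal RNA.

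The joint table has 45807 count lines and 45801 names, and names were moved by an offset that grows in 6 steps. Names within 25 lines of a step and 25 names turned into date numbers were not used, and lines without a usable name held 0.909% to 0.954% of counts and stayed out of library sizes and tests. Of usable names, 91.8% were found in GENCODE M21, used for positions, lengths and transcript classes.

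Duplication was set against wild type with edgeR 4.0.16 (R 4.3.3; TMM factors, filterByExpr, quasi-likelihood F-test, Benjamini-Hochberg adjustment over all genes tested), with 95% intervals from the same fit, and with DESeq2 1.42.0 as an alternative. Log2 CPM uses a prior count of 2. The method was tested on simulated data with the same dispersion for all genes. That setting is simpler than these libraries, so the run cannot show how the calls behave here. Reads carry no molecular identifiers, so PCR copies are not told apart.

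The genes and lists were chosen with earlier results of these data known. Genes named were the 10 members, complex genes past the threshold in edgeR or DESeq2 with the highest and lowest of each list, the 3 most alike genes of each segment gene and the highest and lowest other segment gene, and Ubn2, Ncoa6 and Kmt2c met the rule through DESeq2. Alternatives were DESeq2, 2 other scalings, 2 other filters, each library left out, the replicate number as a block, the unspliced level as a covariate, a margin of 100 lines, and unnamed lines kept.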

Additional observations from a re-analysis of the deposited data

How the results depend on the processing

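The 4 segment genes kept a positive log2 fold change, and Paxip1 a negative and Ino80b a positive one, in all 15 alternatives. Segment genes past the threshold numbered 0 in edgeR, 3 with DESeq2, 4 without a filter on low counts, and 0 to 4 when a library was left out, the 4 without wild type replicate 2. Partners past the threshold numbered 0 to 1 when a library was left out. Over all genes the calls were 0 in edgeR, 285 with DESeq2 (46 higher, 239 lower), 1016 without a filter (173 higher, 843 lower), 7 with the replicate block (6 higher, 1 lower) and 0 to 2406 when a library was left out (730 higher and 1676 lower without wild type replicate 2). The cause was not tested.

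The median of the segment genes was 0.43 and that of the partners 0.079 with the unspliced level as a covariate. The median of the other complex genes was -0.0047 with that covariate, -0.0062 with upper-quartile factors, -0.018 with library size only, -0.012 without a filter and -0.038 to -0.00050 when a library was left out. Upper-quartile factors also took the MAZ, CTCF and cohesin list from -0.02 to 0.00070. With the covariate Ino80 was at 0.082, Ino80c at -0.0020, Actr5 at 0.081 and Hira at 0.22. Actr5 was at 0.0030 with upper-quartile factors and at -0.055 to 0.019 when a library was left out, and Ino80c at -0.013 to 0.16.

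Whether replicate numbers pair the libraries was left unsettled. Deviations from group means correlated at 0.102, 0.063 and 0.311 between libraries of the same number. Duplication replicates 2 and 3 correlated best with the wild type library of their own number, and duplication replicate 1 with wild type replicate 2 (0.157). The block changed no call among the 10 genes. Depth limits Actr5 most, with 67 to 113 counts per library.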
